A study of Mus musculus with 18 samples.

Results

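The Src-family kinases and myeloid signal regulators described here are 9 genes, namely Lyn, Fgr, Src, Csk, Syk, Btk, Ptpn6, Ptpn11 and Inpp5d, out of 18204 genes listed for J774.1 cells, a mouse macrophage line. The set was chosen by symbol, and it was picked on the difference between genotypes of the MTOB effect on Lyn and Ptpn6. All 9 were among the 16383 genes that passed the expression filter of the tests. Every sample was of J774.1 cells, either wildtype or Ctbp1-/-, Ctbp2-/- double knockout (Ctbp1/2dKO, below dKO), treated for 4 h with vehicle (PBS/DMSO), with 1.5 mM MTOB (a keto acid, 4-methylthio-2-oxobutanoate) or with 250 µM 4-Cl-HIPP (a chlorophenyl hydroxyimino acid). Both compounds are used as inhibitors of the dehydrogenase domain of the CTBP transcriptional co-repressors, and the series asked whether their effects need CTBPs. Each of the 6 groups had 3 samples. The dKO line came from single-cell outgrowth after CRISPR editing, and the number of clones behind it is not given in the sources used here, so genotype and clone cannot be told apart.

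Src-family kinases such as Lyn, Fgr and Src sit under the plasma membrane and phosphorylate receptor tails that carry ITAM motifs (activating) or ITIM motifs (inhibitory). Phosphorylated ITAMs recruit Syk, which activates further enzymes together with the Tec-family kinase Btk, whereas phosphorylated ITIMs recruit the phosphatases encoded by Ptpn6 (SHP-1), Ptpn11 (SHP-2) and Inpp5d (SHIP-1), which remove phosphate from proteins or from a membrane lipid. Csk phosphorylates the tail of Src-family kinases and holds them inactive. In macrophages this circuit is known for control of Fc receptor signalling, phagocytosis and cytokine production.

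Levels are given as TPM (transcript abundance scaled by transcript length and by the library total, so that levels can be compared between genes). Ctbp1, one of the edited genes, had a mean of 218 TPM in wildtype and 25.1 TPM in dKO cells under vehicle, and Ctbp2, the other, had 92.6 and 75.9 TPM. On the log2(TPM + 1) scale used for all differences below, Ctbp1 fell by 3.07 (limma adjusted p = 1.81e-10) and Ctbp2 fell by 0.28 (limma adjusted p = 0.00403). The RNA of Ctbp2 was thus still present in the dKO. The study describes a premature stop and a frameshift in both genes, and loss of both proteins by western blot. RNA levels do not measure that loss. Replicates of a group correlated at 0.983 to 0.987 across genes. The mitochondrial share of TPM was 7.04% in dKO MTOB replicate 1 and 8.99% to 10.3% in the other samples. Of 10 macrophage markers, 9 were listed, with a summed level of 2320 to 3420 TPM in every sample, while Cd200r1 did not exceed 0.393 TPM. The 3 listed B cell markers summed to at most 0.824 TPM, the single listed T cell marker (Cd3d) reached at most 2.07 TPM, and the 2 listed fibroblast and epithelial markers summed to at most 1.15 TPM. The 4 mast cell markers looked up gave no values and were not used here.

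The 9 genes lie at separate places in the genome (GRCm39). Lyn is at chr4:3678061-3813122 on the plus strand and Fgr on the same chromosome at chr4:132701257-132730053. Ptpn6 is at chr6:124697670-124715840 on the minus strand, and Syk is at chr13:52736696-52802828 on the plus strand. RefSeq promoter sequences, taken from a table built on GRCm38.p6, matched 8 of the 9 genes, and Lyn had no entry. The 250 bases before the start of 3 genes are shown because the results turn on them: Fgr and Syk were both higher in the dKO under every treatment, and Ptpn6 moved in opposite directions with MTOB in the 2 genotypes. The stretches were placed on GRCm39 by an exact match at chr4:132701156-132701405 (Fgr), chr13:52737223-52737472 (Syk, the first of 2 starts in the table) and chr6:124715673-124715922 (Ptpn6, minus strand). All 3 stretches overlap the gene as the annotation draws it, that of Syk over its whole length. Each is written 5′ to 3′ on the strand of the gene. Capitals mark any match, on either strand, to CACCC (the core bound by KLF factors), GAGGAA (the core bound by PU.1) or CACCTG (the core bound by ZEB factors). Some KLF and ZEB proteins are known to recruit CTBPs.
Fgr: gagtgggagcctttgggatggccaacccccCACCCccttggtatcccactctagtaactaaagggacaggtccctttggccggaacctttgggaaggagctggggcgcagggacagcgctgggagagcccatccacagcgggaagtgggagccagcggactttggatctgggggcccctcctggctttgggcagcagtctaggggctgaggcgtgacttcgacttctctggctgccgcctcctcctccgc
Syk: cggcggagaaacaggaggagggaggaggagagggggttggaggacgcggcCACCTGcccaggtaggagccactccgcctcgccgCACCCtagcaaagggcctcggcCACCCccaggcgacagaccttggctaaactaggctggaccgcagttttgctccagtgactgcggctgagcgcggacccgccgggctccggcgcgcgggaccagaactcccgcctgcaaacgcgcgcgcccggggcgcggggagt
Ptpn6: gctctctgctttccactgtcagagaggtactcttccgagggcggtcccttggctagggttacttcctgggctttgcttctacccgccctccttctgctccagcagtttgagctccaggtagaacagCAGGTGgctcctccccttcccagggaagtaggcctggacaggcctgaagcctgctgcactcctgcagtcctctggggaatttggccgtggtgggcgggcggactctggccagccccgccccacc
The Fgr stretch held 1 CACCC and neither of the other motifs. The Syk stretch held 2 CACCC and 1 CACCTG, and the Ptpn6 stretch held 1 CACCTG alone. The second Syk start, not shown, had 2 CACCC, 1 GAGGAA and 1 CACCTG. Of the other matched members, Btk had 3 CACCC, Src and Inpp5d 2 each and Ptpn11 1. The 2 starts of Csk had 0 and 1. CACCC was thus not particular to Fgr and Syk. These letters are common: of 32851 promoters of the same length, 52% held CACCC, 23.3% held GAGGAA and 17.2% held CACCTG on either strand. The matches describe the sequence and were not tested for binding.

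Lyn, the Src-family kinase that phosphorylates both activating and inhibitory receptor tails, stood at 59.2, 63.1 and 59.7 TPM in the wildtype vehicle samples and at 97, 86.4 and 98 TPM with MTOB. In dKO cells it stood at 60.5, 64 and 63 TPM with vehicle and at 71.4, 73.4 and 71.3 TPM with MTOB. All MTOB samples lay above their vehicle samples in both genotypes, and all wildtype MTOB samples lay above all dKO MTOB samples. The log2 difference was 0.62 (SE 0.05, n = 3 per group) in wildtype and 0.20 (SE 0.05) in dKO, which left a difference between genotypes of 0.42 (SE 0.07). Since the gene was picked on this contrast, these values are a description without a test. Leaving out single samples moved the difference between 0.39 and 0.47, a range that describes the same picked values and does not check them. The order of the group means for Lyn ran from wildtype 4-Cl-HIPP (60.1 TPM) through wildtype vehicle (60.7), dKO vehicle (62.5), dKO 4-Cl-HIPP (68.2) and dKO MTOB (72) to wildtype MTOB (93.8). The lowest 3 groups overlapped their neighbours, and from dKO vehicle upwards neighbouring groups did not overlap.

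Ptpn6, which encodes the phosphatase SHP-1 that ITIM receptors recruit, had 229, 230 and 242 TPM in wildtype vehicle samples and 266, 273 and 262 TPM with MTOB. In dKO cells the values were 246, 256 and 260 TPM with vehicle and 228, 234 and 234 TPM with MTOB. Wildtype samples were thus all higher with MTOB and dKO samples were all lower, without overlap in either genotype. The log2 difference was 0.19 (SE 0.03) in wildtype and -0.13 (SE 0.03) in dKO, and the difference between genotypes was 0.32 (SE 0.04). As ratios of means these were 1.14 and 0.915, both small changes. The samples of Ptpn6 varied by 2.35% within groups. This contrast also served to pick the gene and has no test. Without single samples it ranged from 0.3 to 0.34, which describes the same picked values and does not check them.

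**Figure D1:**
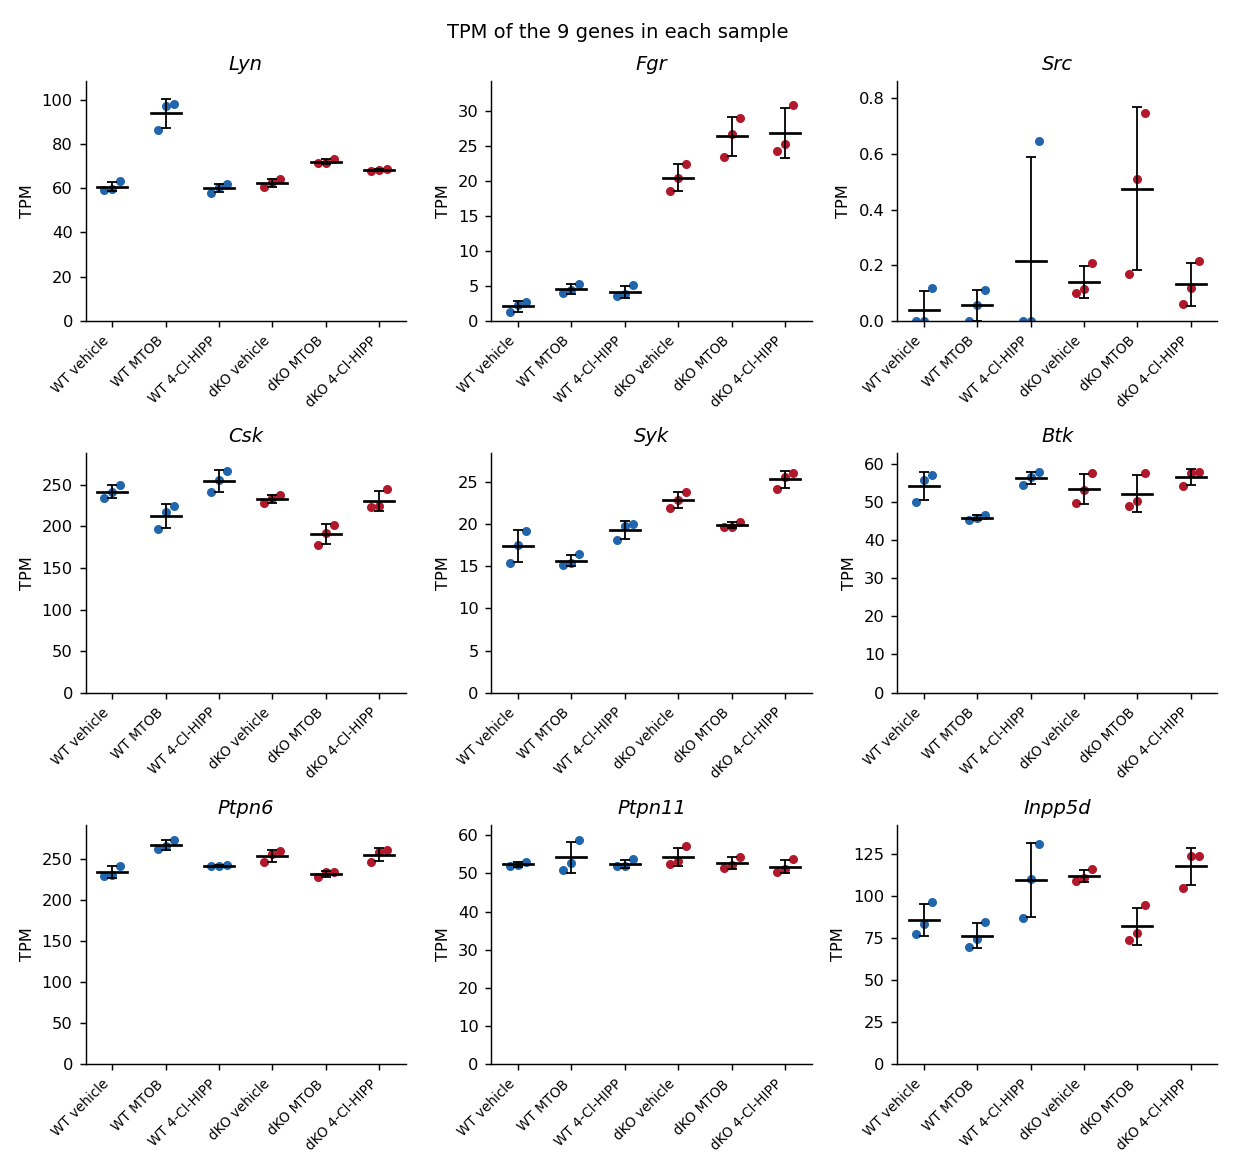
TPM (y axis, linear, from 0) of the 9 genes in each of the 18 samples by group (x axis), with wildtype (WT) in blue and dKO in red. Points are samples, horizontal lines are means and bars are SD (n = 3). Lyn was highest in wildtype MTOB (86.4 to 98 TPM), and Fgr was at most 5.31 TPM in wildtype and at least 18.5 TPM in dKO samples.

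With 4-Cl-HIPP, the 3 wildtype samples of Lyn had 60.5, 61.7 and 58 TPM and the 3 dKO samples 68.5, 68.2 and 67.9 TPM. These 6 samples did not enter the choice of the gene, and the groups did not overlap. Lyn was higher in dKO by 0.18 (SE 0.05, limma adjusted p = 0.0189). The spread in this test came from all 18 samples, among them the vehicle and MTOB samples on which Lyn and Ptpn6 were picked. The call was narrow. Its adjusted p was 0.0534 without the variance trend, 0.0887 without wildtype replicate 3, and 0.0592, 0.0535 and 0.0501 without dKO replicate 1, 2 or 3, within a range of 0.0187 to 0.0887 over all alternatives. For the same samples Ptpn6 had 241, 242 and 243 TPM in wildtype and 246, 259 and 261 TPM in dKO, a difference of 0.07 (SE 0.03, limma adjusted p = 0.182) that did not pass. The dKO samples of Ptpn6 therefore lay above the wildtype samples under 4-Cl-HIPP and, at a log2 difference of 0.12 (SE 0.03), under vehicle, but below them under MTOB (-0.20, SE 0.03).

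Fgr, a Src-family kinase of myeloid cells, was the member with the largest difference between genotypes. It stood at 2.21, 2.7 and 1.24 TPM in wildtype vehicle samples and at 18.5, 20.4 and 22.4 TPM in dKO vehicle samples, a ratio of means of 9.97. Over all treatments the highest wildtype sample had 5.31 TPM and the lowest dKO sample 18.5 TPM. The log2 difference was 2.84 under vehicle (SE 0.17, limma adjusted p = 1.59e-08) and 2.45 under 4-Cl-HIPP (SE 0.17, limma adjusted p = 8.65e-08). Under MTOB it was 2.30 (SE 0.17), as a value without a planned test.

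Fgr also rose with MTOB in wildtype cells, to 4.39, 5.31 and 3.99 TPM, all above the vehicle samples. The log2 difference was 0.89 (SE 0.17, limma adjusted p = 0.00377), and the call was lost when only the 2 compared groups entered the fit (adjusted p = 0.101, range over alternatives 0.00155 to 0.101). In dKO cells the samples had 26.6, 23.4 and 29 TPM with MTOB, also above their vehicle samples, and the difference of 0.35 (SE 0.17, limma adjusted p = 0.289) did not pass. The difference of these effects between genotypes, 0.54 (SE 0.24), belongs to the contrast on which the set was picked and was not tested. With 4-Cl-HIPP, Fgr stood at 3.48, 3.79 and 5.12 TPM in wildtype (log2 difference 0.77, SE 0.17, limma adjusted p = 0.0789) and at 24.3, 25.3 and 30.8 TPM in dKO (0.37, SE 0.17, limma adjusted p = 0.568). Neither passed, although both groups lay above their vehicle samples. The wildtype value passed at an adjusted p of 0.0486 with a pseudocount of 0.1, of 0.0407 among genes with a mean of at least 1 TPM and of 0.0488 without wildtype vehicle replicate 2, in a range of 0.0407 to 0.459.

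Src was close to the limit of detection. It was listed at 0 in 5 of 18 samples and reached at most 0.748 TPM, with a mean normalized count of 2.38, and no direction is read from it. Its difference passed in none of the comparisons tested.

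Csk, the kinase that holds Src-family kinases inactive, was among the more abundant members, at 178 to 267 TPM. In dKO cells it had 228, 238 and 234 TPM with vehicle and 178, 202 and 192 TPM with MTOB, and the groups did not overlap. It fell by 0.29 on the log2 scale (SE 0.06, limma adjusted p = 0.00532). The call was lost when only the 2 compared groups were fitted (adjusted p = 0.0669, range 0.00293 to 0.0669). In wildtype cells the MTOB samples (224, 217 and 197 TPM) also lay below the vehicle samples (234, 242 and 250 TPM), with a difference of -0.19 (SE 0.06, limma adjusted p = 0.0661) that did not pass, except among genes with a mean of at least 1 TPM (0.0459, range 0.0459 to 0.252). The difference of these effects, 0.11 (95% interval -0.06 to 0.28), was not tested.

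Syk, the kinase that binds phosphorylated ITAMs, had 19.2, 15.4 and 17.5 TPM in wildtype vehicle samples and 22.9, 21.9 and 23.8 TPM in dKO vehicle samples. The dKO samples were higher without overlap under each of the 3 treatments. The log2 difference was 0.38 under vehicle (SE 0.07, limma adjusted p = 0.00112) and 0.37 under 4-Cl-HIPP (SE 0.07, limma adjusted p = 0.00128), and its value was 0.32 (SE 0.07) under MTOB. Under vehicle the call was lost when only the 2 compared groups were fitted (adjusted p = 0.0599, range 0.000326 to 0.0599). MTOB moved Syk by -0.14 (limma adjusted p = 0.296) in wildtype and by -0.19 (limma adjusted p = 0.111) in dKO, and neither passed.

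Btk, the Tec-family kinase that acts beside Syk, stood at 45.3 to 46.6 TPM in wildtype MTOB samples and at 49.9 to 57 TPM in wildtype vehicle samples. The groups did not overlap, and the difference of -0.23 (SE 0.07, limma adjusted p = 0.0517) just missed the threshold. In dKO cells the difference was -0.04 (SE 0.07, limma adjusted p = 0.86), with overlapping samples. The wildtype difference passed without wildtype vehicle replicate 2 (adjusted p = 0.0272) and among genes with a mean of at least 1 TPM (0.0422), in a range of 0.0272 to 0.181.

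Inpp5d, which encodes the lipid phosphatase SHIP-1, varied by 12.4% within groups. Its dKO samples ran from 109 to 116 TPM with vehicle and from 73.9 to 94.7 TPM with MTOB. They did not overlap, and the difference of -0.45 (SE 0.13, limma adjusted p = 0.0507) just missed the threshold. It passed without dKO MTOB replicate 3 (adjusted p = 0.0279), with a pseudocount of 0.1 (0.0419) and among genes with a mean of at least 1 TPM (0.0272), in a range of 0.0272 to 0.158. In wildtype the MTOB difference was -0.17 (SE 0.13, limma adjusted p = 0.572), with overlapping samples. The difference of these effects, 0.28 (95% interval -0.11 to 0.67), was not tested. Between genotypes under vehicle, Inpp5d was at 77.8 to 96.3 TPM in wildtype and at 109 to 116 TPM in dKO, a difference of 0.39 (SE 0.13, limma adjusted p = 0.076) that passed only among genes with a mean of at least 1 TPM (0.0447, range 0.0447 to 0.248). The genotypes overlapped under 4-Cl-HIPP (0.13, SE 0.13, limma adjusted p = 0.684) and under MTOB (0.1, SE 0.13, a value without a planned test). Ptpn11, which encodes SHP-2, had group means of 51.8 to 54.3 TPM, and every pair of neighbouring groups overlapped. Its MTOB difference had a 95% interval of -0.05 to 0.15 in wildtype and of -0.14 to 0.06 in dKO.

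Counted over the members, 1 of 7 tested genes (Fgr) was higher with MTOB in wildtype, against 3.8% of all genes tested, and none was lower, against 3.46%. In dKO, 1 of 7 (Csk) was lower, against 3.51% of all genes, and none was higher, against 3.08%. The 7 leave out Lyn and Ptpn6. Between genotypes under vehicle, 2 of 7 (Fgr and Syk) were higher in dKO, against 7.07% of all genes, and none was lower, against 3.72%. Under 4-Cl-HIPP, 3 of 9 (Lyn, Fgr and Syk) were higher, against 6.54%, and none was lower, against 3.63%. With a fold above 1.5 required as well, only Fgr was left in wildtype MTOB (2% of all genes), in dKO under vehicle (4.83%) and in dKO under 4-Cl-HIPP (4.69%). These shares describe a list picked with results known.

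None of the 9 members passed with 4-Cl-HIPP in either genotype by limma, beside 0.342% of all genes in wildtype and 0.494% in dKO. At an unadjusted p below 0.05 there were 3 members in wildtype (Fgr, Syk and Inpp5d) and 2 in dKO (Lyn and Fgr), beside 8.19% and 8.48% of all genes. Lyn had a difference of 0.12 (SE 0.05, limma adjusted p = 0.427) in dKO and of -0.01 (SE 0.05, limma adjusted p = 1) in wildtype. The difference of the 4-Cl-HIPP effect between genotypes passed for none of the 9 by limma, with 0 members at an unadjusted p below 0.05, beside 0% of all genes after adjustment and 4.52% of all genes at an unadjusted p below 0.05. These comparisons share vehicle samples with the contrast that picked the set. MTOB and 4-Cl-HIPP were given at different doses, so their values stand side by side and were not compared.

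**Figure D2:**
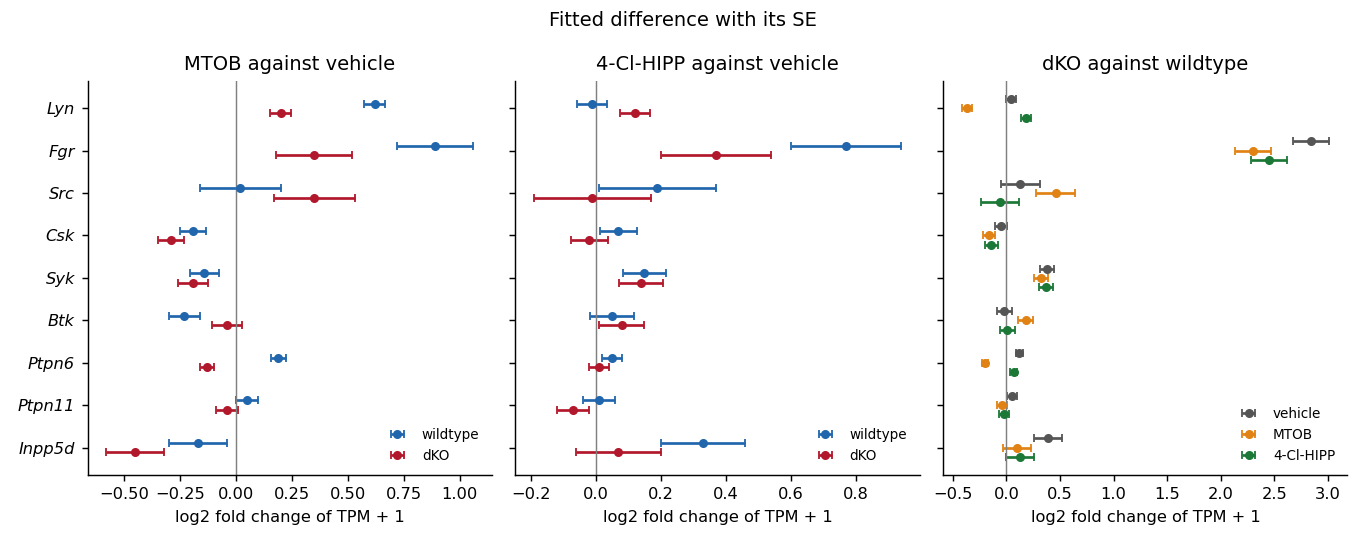
Log2 fold change of TPM + 1 (x axes, which differ between panels) of the 9 genes (y axis), with its SE as bars, for MTOB against vehicle, 4-Cl-HIPP against vehicle and dKO against wildtype. Fgr differed between genotypes by 2.30 to 2.84, and the MTOB values of Ptpn6 lay on opposite sides of 0 (0.19 in wildtype and -0.13 in dKO).

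The same circuit was followed through 4 lists of related genes. Of 11 other kinases of the Src, Tec or Csk families, 7 were tested and none passed with MTOB by limma. Over all genes 3.8% were higher and 3.46% lower in wildtype, and 3.08% and 3.51% in dKO. At an unadjusted p below 0.05 there were 3 of the 7 kinases in wildtype and 1 in dKO, beside 18.4% and 19% of all genes. In dKO cells 3 of the 7 were higher under vehicle and the same number under 4-Cl-HIPP, and none was lower. Over all genes 7.07% were higher under vehicle and 6.54% under 4-Cl-HIPP. The median log2 difference of the 7 under vehicle was 0.304, beside 0.012 over all genes. That median was the value of a gene with a mean of 0.41 TPM (SE 0.15), whose samples overlapped. The values next to it in the list were 0.01 and 0.45. Among the 3 higher in dKO were the Src-family kinase Fyn and the Tec-family kinase Tec. Tec had a mean of 12.2 ± 2.7 TPM (SD, n = 3) in wildtype and 20.3 ± 1.35 TPM in dKO under vehicle (log2 difference 0.71, limma adjusted p = 0.000799), and Fyn differed by 0.45 (limma adjusted p = 0.000607). With only the 2 compared groups fitted, 1 of the 7 passed under vehicle. The share of all genes passing in that fit was not worked out, so the drop is not read as particular to the list.

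Of 24 tested ITAM adaptors and signalling partners of Syk and Btk, 4 were higher and 1 lower with MTOB in wildtype, and 3 were higher and 3 lower in dKO. Over all genes 3.8% were higher and 3.46% lower in wildtype, and 3.08% and 3.51% in dKO. Their median log2 difference in wildtype was 0.0247, beside -0.00571 over all genes. Fyb, an adaptor also known as ADAP, rose from 70.5 ± 1.32 to 166 ± 18.7 TPM in wildtype (1.21, limma adjusted p = 3.3e-06) and from 68.2 ± 1.86 to 147 ± 6.69 TPM in dKO (1.09, limma adjusted p = 1.12e-05). Pik3ap1, the phosphoinositide 3-kinase adaptor BCAP, rose by 0.80 in wildtype (limma adjusted p = 1.18e-07) and by 0.50 in dKO (limma adjusted p = 2.86e-05). Its level was also higher in dKO, by 0.56 under vehicle (limma adjusted p = 3.02e-06). Pik3r5, a regulatory subunit of phosphoinositide 3-kinase gamma, rose with MTOB by 0.33 in wildtype (limma adjusted p = 0.000616), and Plcg2, the phospholipase that Btk activates, fell by 0.27 (limma adjusted p = 0.0045). Both moved the same way in dKO, Pik3r5 by 0.20 (limma adjusted p = 0.0239) and Plcg2 by -0.24 (limma adjusted p = 0.0116). Between genotypes under vehicle, 5 of the 24 were higher in dKO and none was lower, beside 7.07% and 3.72% of all genes. With only the 2 compared groups fitted, 2 passed with MTOB in dKO in place of 6, again without a share of all genes for that fit.

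Of 18 tested phosphatases, adaptors and ligases of tyrosine kinase signalling, 2 were higher with MTOB in wildtype and 3 in dKO. Over all genes 3.8% and 3.08% were higher. None of the 18 was lower, beside 3.46% and 3.51% of all genes. The median log2 difference of the list in wildtype was 0.0439. Dok2, an adaptor that dampens kinase signals, rose from 90.8 ± 7.01 to 166 ± 1.29 TPM in wildtype (0.87, limma adjusted p = 6.6e-05) and from 90.2 ± 8.36 to 138 ± 5.07 TPM in dKO (0.61, limma adjusted p = 0.00182). Ptprj, a receptor tyrosine phosphatase, rose by 0.69 in wildtype (limma adjusted p = 5.47e-07) and by 0.32 in dKO (limma adjusted p = 0.00129). The difference of its MTOB effects between genotypes did not pass (0.37, SE 0.07, limma adjusted p = 0.11). Between genotypes under vehicle 4 were higher in dKO and 2 were lower, beside 7.07% and 3.72% of all genes. Ptpn22, a phosphatase that acts on Src-family kinases, had 17.9 ± 3.53 TPM in wildtype and 53.6 ± 7.57 TPM in dKO (1.54, limma adjusted p = 1.23e-06), and Ubash3b, a phosphatase of Syk, differed by 0.48 (limma adjusted p = 0.00964). With only the compared groups fitted, 1 gene passed with MTOB in dKO, and the share of all genes in that fit was not worked out.

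Of 15 tested inhibitory receptors that recruit Ptpn6, Ptpn11 or Inpp5d, 6 were higher and 1 lower with MTOB in wildtype. In dKO, 5 were higher and 2 lower. The shares of all genes were 3.8% higher and 3.46% lower in wildtype and 3.08% and 3.51% in dKO. The median log2 difference of the list in wildtype was 0.325, beside -0.00571 over all genes. That median was the value of a gene with a mean of 0.85 TPM (SE 0.43), whose samples overlapped. The values next to it in the list were 0.26 and 0.34. Fcgr2b, the inhibitory Fc receptor that recruits SHIP-1, rose from 9.15 ± 1.2 to 23.6 ± 2.61 TPM in wildtype (1.28, limma adjusted p = 0.00011) and from 2.47 ± 0.703 to 9.53 ± 1.36 TPM in dKO (1.61, limma adjusted p = 1.26e-05). Lilrb4a, an ITIM receptor with a close paralog that may share its reads, rose by 1.37 in wildtype (limma adjusted p = 0.000607) and by 1.19 in dKO (limma adjusted p = 0.0024). Siglece, a sialic acid receptor with ITIMs, rose by 1.00 in wildtype (limma adjusted p = 0.000169) and stood at 5.1 ± 0.822 and 6.05 ± 0.912 TPM in dKO (0.21, limma adjusted p = 0.445). The difference of its effects between genotypes did not pass (0.79, SE 0.19, limma adjusted p = 0.209). Cd72, an ITIM receptor that binds SHP-1, rose by 0.26 in wildtype (limma adjusted p = 0.00358) and by 0.37 in dKO (limma adjusted p = 0.000295). With only the 2 compared groups fitted, 4 of the 15 passed in each genotype. No share of all genes was worked out for that fit, so the drop is not read as particular to the receptors.

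Between genotypes under vehicle, 7 of the 15 receptors were higher in dKO and 4 were lower, beside 7.07% and 3.72% of all genes, with a median difference of 0.545. Among the 7 were genes with low means of 0.3 and 0.495 TPM over all samples. Lair1, a collagen receptor with ITIMs, had 1.79 ± 0.587 TPM in wildtype and 25.4 ± 6.99 TPM in dKO (3.22, limma adjusted p = 1.33e-07). Cd300a, a lipid-binding ITIM receptor, had 10.3 ± 1.32 and 23.6 ± 0.757 TPM (1.13, limma adjusted p = 1.06e-05). Fcgr2b (-1.56, limma adjusted p = 6.51e-06), Lilrb4a (-0.74, limma adjusted p = 0.0337) and Cd72 (-0.29, limma adjusted p = 0.000967) were lower in dKO. Of the 64 tested genes of the 4 lists, none passed with 4-Cl-HIPP by limma. Over all genes 0.342% passed in wildtype and 0.494% in dKO. At an unadjusted p below 0.05 there were 7 of the 64 in each genotype, beside 8.19% (wildtype) and 8.48% (dKO) of all genes. The difference of the MTOB effect between genotypes passed for none of the 64 by limma, with 11 at an unadjusted p below 0.05, beside 0.0916% of all genes after adjustment and 6.85% at an unadjusted p below 0.05.

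**Figure D3:**
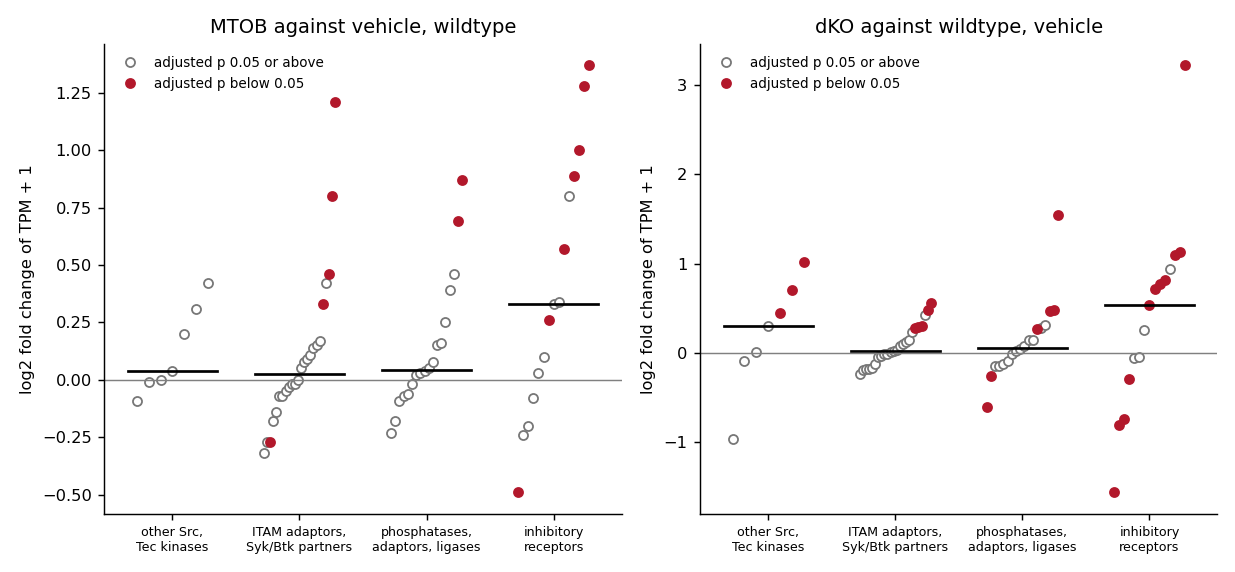
Log2 fold change of TPM + 1 (y axis) of every tested gene of the 4 lists (x axis), for MTOB in wildtype and for dKO against wildtype under vehicle. Each point is a gene, red where the limma adjusted p was below 0.05, and lines are medians (0.325 and 0.545 for inhibitory receptors).

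Macrophage markers also moved in these comparisons, and their part in the results above was not tested. Their summed level was 2700 to 2790 TPM in wildtype vehicle, 3250 to 3420 TPM in wildtype MTOB and 2600 to 2660 TPM in wildtype 4-Cl-HIPP samples. In dKO samples it was 2430 to 2500 TPM with vehicle, 2540 to 2850 TPM with MTOB and 2320 to 2400 TPM with 4-Cl-HIPP. Of the 9 tested, 4 were higher and none lower with MTOB in wildtype, and 3 were higher and none lower in dKO. Over all genes 3.8% were higher and 3.46% lower with MTOB in wildtype, and 3.08% and 3.51% in dKO. With 4-Cl-HIPP no marker passed in wildtype, and Cd14 was lower in dKO (-0.46), beside 0.342% and 0.494% of all genes passing. Between genotypes under vehicle 3 were higher in dKO (Fcgr1, Cd68 and Itgam) and 2 were lower (Adgre1 and Cd14). Over all genes these shares were 7.07% and 3.72%. Single markers ran over wide ranges among the 18 samples: Adgre1 (F4/80) 6.7 to 107 TPM, Itgam (CD11b) 11.3 to 65.3 TPM and Cd14 91.6 to 857 TPM.

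The genes most like Lyn, by Pearson r of log2(TPM + 1) over the 18 samples among 9712 genes with a mean of at least 5 TPM, were Abr (r = 0.938), Ipo5 (0.919) and Cebpd (0.918). Abr had means of 60.4 TPM in wildtype vehicle, 128 TPM in wildtype MTOB, 66.1 TPM in dKO vehicle and 90.4 TPM in dKO MTOB samples. The most opposite were Gstz1 (-0.905), Srsf5 (-0.896) and the pseudogene Rpl3-ps1 (-0.867), whose reads may be shared with its parent gene. Likeness to Ptpn6 was weaker, with Zfp383 (0.747), Fancg (0.718) and Chst12 (0.717) most like it and Churc1 (-0.766), Stx4a (-0.71) and Pla2g4a (-0.687) most opposite. The correlations describe samples that share the 6 groups and have no p-value.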

How the data were processed

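RNA of 18 J774.1 samples (2 genotypes, 3 treatments, 3 replicates each) was sequenced with an unstranded Illumina kit. The labels name polyA RNA, whereas the study's methods name rRNA depletion. The authors quantified transcripts with Salmon 1.9.0 on GRCm39 (Gencode), summarised them per gene with tximport and deposited TPM per sample, here read as such, with a mean normalized count from DESeq2 1.44.0 (a signal the authors averaged over samples). Depth per sample is unknown from TPM. The 8 deposited columns of the authors' log2 fold changes and adjusted p-values were not used.

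Genes above the 10th percentile of the mean normalized count (0.222) were tested, 16383 of 18204. limma 3.58.1 in R 4.3.3 was fitted to log2(TPM + 1) of the 18 samples together, with 1 mean for each of the 6 groups, moderated variances and a trend of the variance on the mean normalized count. On this scale the fold changes of low genes come out too small. P-values were adjusted by Benjamini-Hochberg over all genes, and a gene passed below 0.05. The study's own rule adds a fold above 1.5. Replicates are described as biological triplicates, but separate cultures are not otherwise recorded, so p-values measure the spread between these samples. The fit was tested on simulated data.

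Members and lists were chosen with earlier results of these data known. Named were all members, up to 4 genes per list with the smallest p for MTOB in wildtype, up to 2 for MTOB in dKO and up to 2 for dKO against wildtype under 4-Cl-HIPP, among those passing, and the 3 genes most and least like Lyn or Ptpn6. A gene that the rule also picks is not reported here. Fyn is named beyond this rule, as are the genes of counts and markers. Positions came from Gencode on GRCm39. Alternatives were other pseudocounts, filters, centring, variance models, subsets and a replicate block.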

Additional observations from a re-analysis of the deposited data

Results flagged for a closer look

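Ptpn6 moved in opposite directions with MTOB in the genotypes: all 3 wildtype samples were above their vehicle samples (log2 difference 0.19) and all 3 dKO samples were below theirs (-0.13), a difference of 0.32. Seen the other way, dKO samples of Ptpn6 were all above wildtype under vehicle (0.12) and all below under MTOB (-0.2), again a difference of 0.32. The difference was not tested in either form, because Ptpn6 was picked on the MTOB contrast.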

How the results depend on the processing

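The number of members past the threshold depended on a few settings. With MTOB in wildtype it was 1, and it was 3 (Fgr, Btk and Csk) among genes with a mean of at least 1 TPM, 0 with only the compared groups fitted, and 1 to 2 without single replicates (2 without wildtype vehicle replicate 2). With MTOB in dKO it was 1, and it was 2 (Csk and Inpp5d) with a pseudocount of 0.1 or a mean of at least 1 TPM, 0 with only the compared groups or with a fold above 1.5, and 1 to 2 without single replicates (2 without dKO MTOB replicate 3). With 4-Cl-HIPP in wildtype it was 0, and 1 (Fgr) with a pseudocount of 0.1 or a mean of at least 1 TPM, and 0 to 1 without single replicates (1 without wildtype vehicle replicate 2). Between genotypes it was 2 under vehicle, and 1 (Fgr) with only the compared groups or with a fold above 1.5. Inpp5d was gained there among genes with a mean of at least 1 TPM (limma adjusted p = 0.0447). Under 4-Cl-HIPP the number was 3, 1 (Fgr) with a fold above 1.5, and 2 to 3 without single replicates. Lyn was lost there without the variance trend (limma adjusted p = 0.0534). Over the 4 lists, genes passing with MTOB in dKO numbered 16, and 7 with only the compared groups. With 4-Cl-HIPP in dKO they numbered 0, and 1 with a pseudocount of 0.1 or 5 or a mean of at least 1 TPM. The share of all genes passing under these settings was not worked out. The cause was not tested, beyond fewer genes or samples entering some fits. No alternative reversed a call. Each tested log2 difference of a member was refitted under each alternative that touches it: 822 refits kept their side of the threshold, 8 lost the call, 10 gained it, and 5 changed sign by more than the SE without passing. Of refits of differences that were not tested, 259 stayed within the SE and 4 moved by more.

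Replicate numbers did not pair the samples. Same-numbered samples deviated together with correlations of -0.133 to 0.0909, and a replicate block gave the same counts of members, 1 and 1 with MTOB, 0 and 0 with 4-Cl-HIPP, and 2 and 3 between genotypes. Depth per sample is unknown, and with 3 samples per group small differences such as those of Ptpn11 cannot be told from none.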
